A study of Mus musculus with 44 samples.

Results

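The 48 antiviral interferon-stimulated genes described here were chosen by name, as well-known targets of interferon signalling in the mouse. Earlier results of these data were known when they were chosen, so shares of members set beside all genes are a description only. All 48 were found among the 55416 genes of the count table. They comprised 5 genes of the Ifit family, 8 oligoadenylate synthetase (Oas) genes, 10 other antiviral effectors, 5 sensors of foreign nucleic acid, 2 transcription factors, 7 genes of ubiquitin and ISG15 conjugation, 2 of ADP-ribosylation and 9 further interferon-induced genes. They were measured in messenger RNA of 44 cultures of CD4 T cells from C57BL/6NTac mice that were wild type (WT), knock-out (KO) or knock-in (KI) for miR-150, a microRNA abundant in mature lymphocytes. Naive CD4 T cells sorted from spleen were plated at 150000 per well and kept for 3 days on plate-bound antibody to CD3 with soluble antibody to CD28, which every group received. Cultures given nothing more are called Th0, those given IL-12 and anti-IL4 Th1, and those given TGF-b1 and anti-IFN-g Treg. Each of the 9 groups of culture and genotype held 5 libraries, except Th0 KI with 4, and libraries are named by group and number (Th0 WT 1). The labels state neither the age of the mice, nor the design of the KO and KI alleles, nor what a library number stands for, so the p-values measure the spread between these libraries, part of which may be technical.

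Type I interferons (interferon-alpha and -beta) bind the receptor of Ifnar1 and Ifnar2, and the kinases JAK1 and TYK2 then act on transcription factors. A complex that contains STAT2 and IRF9 binds the interferon-stimulated response element (ISRE), a DNA motif near the starts of antiviral genes. Interferon-gamma, the signature cytokine of Th1 cells, signals through Ifngr1 and Ifngr2 to another motif, the GAS element, and its targets overlap in part with those of type I interferon. In T cells the products of these genes restrict viruses, and type I interferon also alters proliferation and cytokine output. The antibody of the Treg cultures neutralises interferon-gamma and not type I interferon.

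Promoter sequences were searched for both motifs. RefSeq promoters on GRCm38.p6, each running from 250 bases before the annotated start to 50 after it, were available for 35 of the 48 members. The ISRE, searched on both strands as a GAAA half-site followed by any 2 bases and a second GAAA, was found in 18 of 35 members (51.4%), against 3.99% of the 27025 genes with a promoter in the same table. The GAS element, searched as TTCNNNGAA on both strands, was found in 6 of 35 members (17.1%), against 9.55% of genes, and in 1 member promoter an ISRE and a GAS match shared bases. The 130 bases before the start follow for 3 genes that fell in Treg against Th0 cultures of at least WT and KI (Rsad2, Isg15, Oas3) and 3 that rose in at least KO (Ifit3, Oas1c, Samd9l), with ISRE matches in capitals and neighbouring matches run together.
Rsad2, chr12:26456453-26456582, minus strand: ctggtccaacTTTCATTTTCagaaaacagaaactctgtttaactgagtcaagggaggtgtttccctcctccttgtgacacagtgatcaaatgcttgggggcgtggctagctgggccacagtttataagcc
Isg15, chr4:156200819-156200948, minus strand: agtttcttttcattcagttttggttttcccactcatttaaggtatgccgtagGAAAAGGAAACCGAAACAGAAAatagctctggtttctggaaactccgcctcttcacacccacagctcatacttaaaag
Oas3, chr5:120777660-120777789, minus strand: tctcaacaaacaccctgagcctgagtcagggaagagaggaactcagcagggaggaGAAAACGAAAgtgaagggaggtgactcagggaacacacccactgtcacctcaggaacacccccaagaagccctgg
Ifit3, chr19:34583399-34583528, plus strand: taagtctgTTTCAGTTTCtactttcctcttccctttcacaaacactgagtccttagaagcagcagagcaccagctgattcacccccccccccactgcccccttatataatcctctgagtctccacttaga
Oas1c, chr5:120812515-120812644, minus strand: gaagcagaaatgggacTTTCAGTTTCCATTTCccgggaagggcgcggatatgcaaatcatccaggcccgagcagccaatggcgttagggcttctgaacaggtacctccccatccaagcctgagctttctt
Samd9l, chr6:3399572-3399701, minus strand: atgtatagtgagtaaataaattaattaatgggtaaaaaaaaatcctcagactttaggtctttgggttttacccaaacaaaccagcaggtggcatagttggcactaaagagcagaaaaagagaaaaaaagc
An ISRE match thus occurred in both sets. Isg15 held 3 overlapping matches, 66 to 78 bases before its start counted at the first base of each match, Oas1c held 2 and the 300-base window of Samd9l held none. Ifit3 held a further match outside the stretch printed. Of the members that were lower in Treg than in Th0 cultures of WT (a test given below), 6 of 9 with a promoter had an ISRE, and of those higher 1 of 2. In KO the counts were 5 of 9 among those higher and 1 of 2 among those lower, and in KI 12 of 20 among those lower. A match is a description of the letters only.

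Between 60815821 and 137415965 reads were counted per library. The limit set by 3 counts, which covers counting error only, lay at 0.0218 to 0.0493 CPM, the counts scaled to a common library size. All 48 members passed the filter on low counts, as did 21873 genes in all. Mir150, the hairpin gene of the targeted microRNA, had 6 counts over the 15 WT libraries, 0 over the 15 KO and 7 over the 14 KI, with at most 2 in any library, so these poly(A) libraries could not separate WT from KI. The CD4 T cell markers (Cd4, Cd3e, Cd3g, Trac, Zbtb7b) summed to 715 to 1729 CPM, and Foxp3, which specifies regulatory T cells, was found at 47.7 to 596 CPM in Treg and at most 4.35 CPM in other cultures. The libraries numbered WT 4, KO 2 and KI 3 stood apart from the rest of their genotype: in Treg cultures they held the most Cd8a (443, 73.1 and 318 CPM), the least Foxp3 (47.7, 77.4 and 61.97 CPM) and the most Ifng (846, 157 and 160 CPM). Th0 WT 1 stood apart in the antiviral genes themselves.

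Within a library the antiviral genes spanned a wide range of abundance. Per kilobase of exon, Ifi27l2a had the highest median level over the 44 libraries at 156 CPM per kb, followed by Ly6e at 79.7 and Bst2, the tetherin gene, at 66.1, while Ifi44, Oas1g and Phf11d were lowest at 0.420, 0.386 and 0.203. Several members share sequence with close relatives, so their counts are uncertain: of all 150-base words in the longest transcript, 32.4% for Oas1a and 30.1% for Oas1g also occurred in another gene (mainly each other), 18.5% for Ifit3, 15.99% for Ifit3b and 17.9% for Herc6. The labels do not say how reads matching several genes were counted.

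Averaged over the 48 members, the antiviral genes were highest in Th0 KI, and the order of the cultures differed between genotypes. The mean level of a library is its mean log2(CPM + 0.5) over the members, given as a description with no test. In Th0 it was 4.31 ± 0.81 in WT (SD, n = 5), 4.65 ± 0.62 in KO (SD, n = 5) and 5.60 ± 0.64 in KI (SD, n = 4). In Th1 it was 3.83 ± 0.44, 4.08 ± 0.31 and 4.56 ± 0.32 in WT, KO and KI (SD, n = 5 each), and in Treg 3.88 ± 0.72, 4.97 ± 0.53 and 4.45 ± 0.30 (SD, n = 5 each). In WT and KI the Th0 mean was thus above both others, whereas in KO the Treg mean was the highest of the 3, and the spread within a group was often as large as the gap between groups.

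Single libraries accounted for part of that spread. Th0 WT 1 had a mean level of 5.70 against 3.56 to 4.18 in the other Th0 WT libraries, and it was the highest of its group for 45 of 48 members. Without it the Th0 WT mean was 3.96. Treg KO 2 had a mean level of 4.07 against 5.04 to 5.49 in the other Treg KO libraries and was the lowest of its group for 45 of 48 members. It is also the Treg KO library with the most Cd8a and Ifng and the least Foxp3, and the part of those cells in its level was not tested. Same-numbered libraries of a genotype kept a similar rank across cultures in several cases: WT 1 was highest in all 3 WT cultures and WT 5 lowest.

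**Figure D1:**
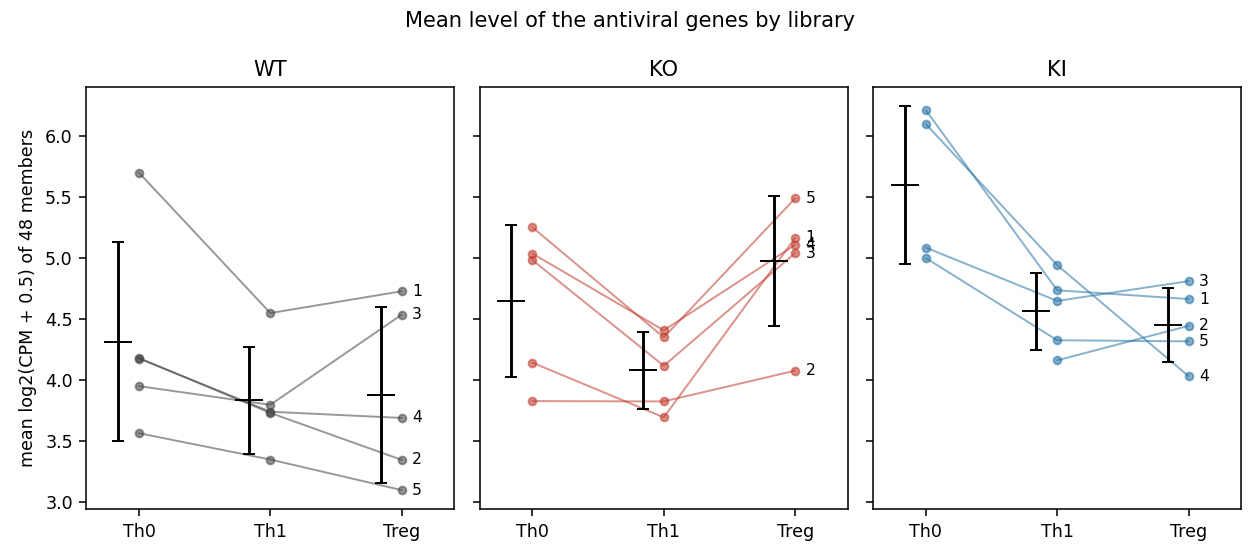
Mean level of the 48 antiviral genes in each library, as mean log2(CPM + 0.5), by culture (x axis) with 1 panel per genotype; thin lines join libraries with the same number, the black bar is the group mean and its whiskers the SD. Th0 WT 1 lies at 5.70 above the other Th0 WT libraries (3.56 to 4.18), and in KO the Treg mean of 4.97 is above the Th0 mean of 4.65.

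Transcripts of the type I interferons were scarce. The counts of 15 type I interferon genes, Ifnb1 and the interferon-alpha genes, were summed because the alpha genes are near-identical copies. Ifne, Ifnk and Ifnz, also of type I, were left out of the sum. It stood at 518 counts in Th0 KI 1, 201 in Th0 KI 4, 99 in Th0 WT 1 and 84 in Th0 KO 5, and 0 to 55 in the other Th0 libraries. Those 4 libraries had mean antiviral levels of 6.21, 6.10, 5.70 and 5.25, the 4 highest of the 14 Th0 libraries. Th1 libraries held 2 to 88 such counts and Treg libraries 0 to 10. Th0 KI 3 went the other way, with 6 counts and a mean level of 5.08. Ifnb1 alone was highest in Th0 KI 1, at 1.17 CPM, followed by Th0 KI 4 at 0.441, Th0 KO 5 at 0.282 and Th0 WT 1 at 0.195. It had 0 counts in every Treg library except Treg KO 3 and KO 5, with 4 and 3. Of 21 ligand genes listed, Ifng among them, 7 passed the low-count filter. In Treg against Th0 cultures 2 of these were called lower in WT, 1 in KO and 5 in KI. Ifnb1, Ifna2, Ifna4, Ifnl2 and Ifnl3 had at most 5 counts in any Treg library, so they passed the filter through other cultures. For these genes only a lower call was possible, and the direction is thus no result.

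In the same comparison 17.4% of all genes rose and 15.7% fell in WT. In KO 17.1% rose and 15.9% fell, and in KI 16.7% rose and 16.9% fell. Of 22 genes of interferon receptors and signalling, 8 rose and 1 fell in Treg against Th0 cultures of WT, 12 rose and 2 fell in KO, and 9 rose and 3 fell in KI. Ifnar2, a chain of the type I receptor, rose by a log2 fold change of 0.65 ± 0.11 (SE) in WT, 0.74 ± 0.11 in KO and 0.72 ± 0.12 in KI. Both chains of the interferon-gamma receptor rose as well, Ifngr1 by 1.27, 1.64 and 1.30 and Ifngr2 by 0.77, 0.74 and 0.91. In Th1 against Th0 cultures Ifngr2 fell by 1.36 in WT, 1.16 in KO and 0.93 in KI on the log2 scale. Stat2 rose in Treg KO by 0.95 ± 0.30, a call that ended without Th0 KO 1 (adjusted p = 0.0504), and stood at 0.27 in WT and -0.21 in KI. Of 11 genes of nucleic acid sensing upstream of interferon, 2 rose and 2 fell in WT. In KO 3 rose and 1 fell, and in KI 2 rose and 3 fell, shares of a small list that lie near those over all genes in WT.

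The question of what the Treg condition did to the antiviral genes was addressed within each genotype by edgeR's quasi-likelihood test, with p-values adjusted over all 21873 genes and called at 0.05. In WT most of the members that moved fell, in KO most rose, and in KI all that moved fell. In WT 2 members rose and 11 fell, where 17.4% of all genes rose and 15.7% fell, together 33.1%. In KO 16 rose and 3 fell (17.1% and 15.9% of all genes, together 33%), and in KI 0 rose and 25 fell (16.7% and 16.9%). The median log2 fold change of the members was -0.33 in WT, 0.25 in KO and -1.08 in KI, against 0.02, 0.04 and -0.01 over all genes. The share of members lower in WT, 11 of 48, was thus not far from the background of that comparison.

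Th0 WT 1 set the direction in WT: without it 8 members rose and 4 fell, where 31.3% of all genes were called in either direction. Of the 11 falls, Mx1, Ifih1, Lgals3bp and Tor3a remained called without it. The other 7 did not pass: Oasl1 (adjusted p = 0.0583), Oas1a (0.107), Rsad2 (0.127), Isg15 (0.221), Oas3 (0.273), Ifi44 (0.463) and Bst2. The highest adjusted p of Bst2 with 1 library left out, 0.124, came without Treg WT 2. With same-numbered libraries of WT paired as a block, 7 members rose and 16 fell (20.1% and 20.3% of all genes), 23 calls in place of 13. Without Treg WT 2 there were 8 calls and without Treg WT 5 also 8. Without the libraries of the highest Cd8a, 4 rose and 10 fell in WT, 15 rose and 3 fell in KO, and 0 rose and 27 fell in KI. The share of all genes also moved with the fit, so a change in count is not shown to be particular to the members.

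**Figure D2:**
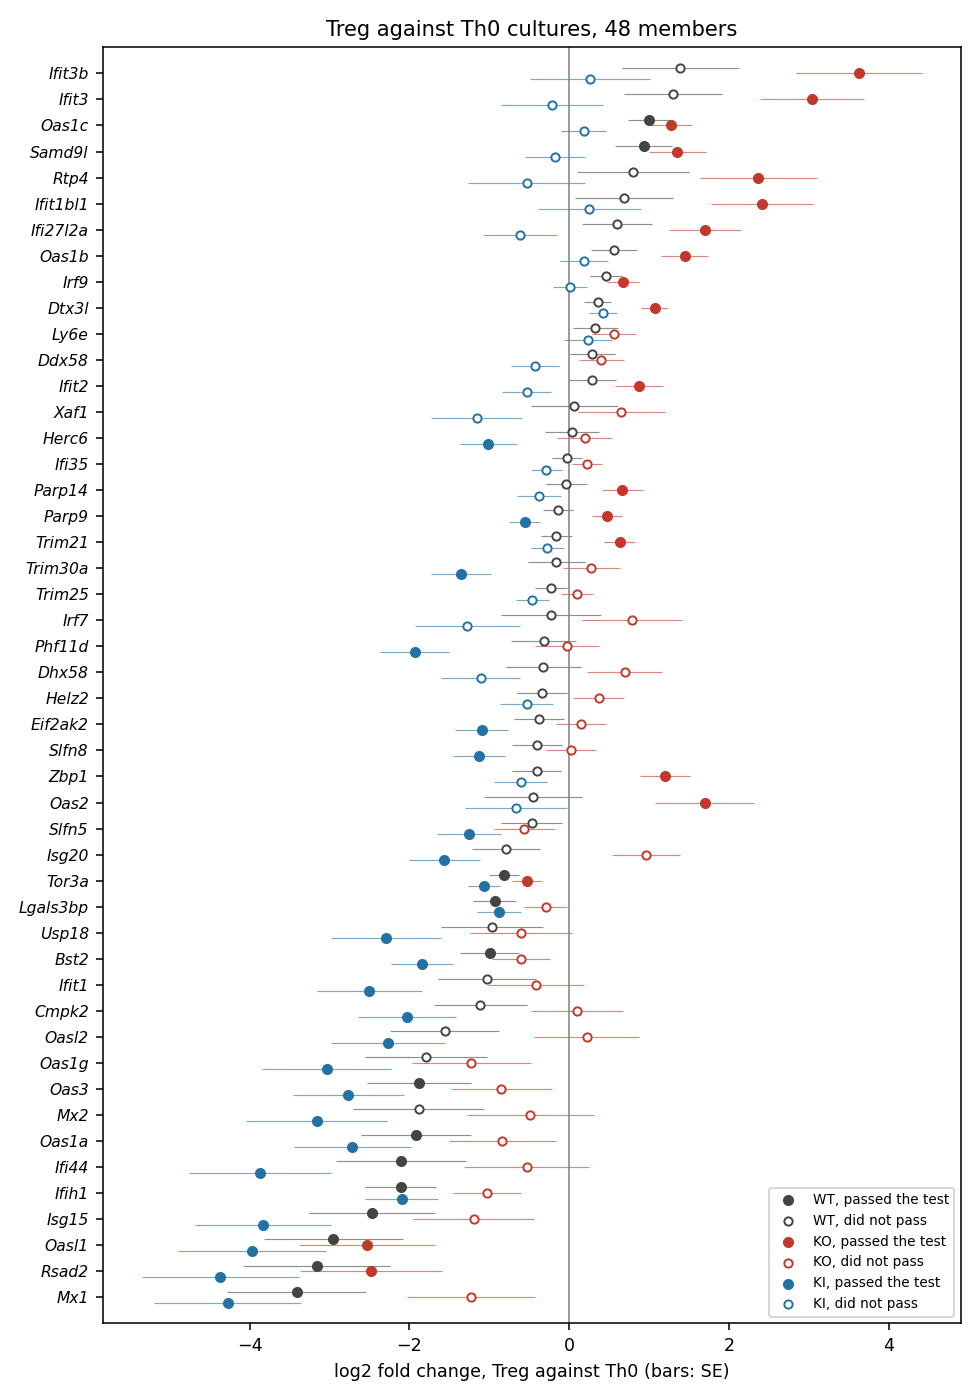
Log2 fold change of Treg against Th0 cultures for each of the 48 members (y axis, ordered by the WT value) in WT, KO and KI; whiskers are SE, and filled points passed the test while open points did not. Ifit3 and Ifit3b lie at the top, with KO values of 3.04 and 3.62, and Mx1 and Rsad2 at the bottom, with KI values of -4.27 and -4.37.

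Among the effectors, the Ifit genes encode proteins that bind foreign RNA caps and ends and block translation. Of the 5, 0 passed in WT, 4 rose in KO and 1 fell in KI. Ifit3 (chromosome 19, 34583531 to 34588731, plus strand) was at 1.01, 0.394, 4.92, 3.63 and 3.49 CPM in Th0 KO 1 to 5 and at 22.7, 4.25, 20.6, 32.2 and 30.8 CPM in Treg KO 1 to 5. Treg KO 2 was the only Treg KO library within the range of the Th0 KO libraries. Ifit3 rose by 3.04 ± 0.65 (SE, adjusted p = 3.60e-04) in KO, its neighbour Ifit3b by 3.62 ± 0.79 and Ifit1bl1 by 2.41 ± 0.64, and all 3 kept their calls when any 1 library was left out. In WT Ifit3 was at 8.38, 2.77, 0.557, 1.01 and 1.93 CPM in Th0 and 13.7, 4.27, 8.79, 4.82 and 4.30 CPM in Treg, with overlap and no call. In KI it was at 19.5, 2.80, 23.4 and 8.20 CPM in Th0 (numbers 1, 3, 4 and 5) and 12.7, 11.8, 12.6, 6.61 and 14.2 CPM in Treg, so the Th0 KI libraries spanned the whole Treg range. Ifit1, the member that fell in KI, did so by 2.50 ± 0.66 on the log2 scale.

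Catalytically active Oas proteins sense double-stranded RNA and make oligoadenylates that activate RNase L. Of the 8 genes, 1 rose and 3 fell in WT, 3 rose and 1 fell in KO, and 5 fell in KI. All 3 falls in WT (Oas1a, Oas3 and Oasl1) ended without Th0 WT 1. Oas3 fell by 2.76 ± 0.69 on the log2 scale in KI, from 163, 100.5, 196 and 95.9 CPM in Th0 to 24.9, 16.13, 41.4, 6.75 and 13.2 CPM in Treg, with no overlap. Oasl1, which represses translation of Irf7, fell in all 3 genotypes, by 2.95 ± 0.87 in WT, 2.52 ± 0.85 in KO and 3.97 ± 0.93 in KI. Another gene of the family, Oas1c, went the other way. It rose by 0.99 ± 0.27 in WT and 1.27 ± 0.27 in KO, from 4.08, 7.20, 7.14, 7.86 and 7.20 CPM in Th0 KO to 17.7, 8.57, 19.8, 18.1 and 16.7 CPM in Treg KO, and both calls held when any 1 library was left out. Oas1b rose by 1.44 ± 0.29 in KO.

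Of the 10 other effectors, 1 rose and 3 fell in WT, 1 rose and 1 fell in KO, and 8 fell in KI. Mx1 was at 80.2, 21.9, 5.39, 11.6 and 7.52 CPM in Th0 WT and at 6.27, 0.876, 3.54, 0.900 and 0.260 CPM in Treg WT. Treg WT 1 alone thus lay within the Th0 range. Mx1 fell by 3.41 ± 0.87 (SE) on the log2 scale in WT (adjusted p = 0.00236) and by 4.27 ± 0.92 in KI (adjusted p = 3.89e-04). Both calls held when any 1 library was left out. In KO its log2 fold change was -1.23 ± 0.80 and did not pass.

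Rsad2, the viperin gene, fell in all 3 genotypes, by 3.16 ± 0.92 in WT, 2.48 ± 0.89 in KO and 4.37 ± 0.98 in KI on the log2 scale. It was at 31.5, 4.97, 33.003 and 3.25 CPM in Th0 KI and at 0.964, 0.233, 2.21, 0.619 and 0.360 CPM in Treg KI, with no overlap. The WT call of Rsad2 ended without Th0 WT 1 (log2 fold change -1.68, adjusted p = 0.127), and the KO call held in 5 of 10 fits that left out 1 library. Samd9l, a restriction factor of poxviruses and an antiproliferative gene, was the effector that rose: in KO by 1.35 ± 0.36, from 41.2, 41.8, 78.2, 75.2 and 86.5 CPM in Th0 to 188, 80.3, 200.1, 169 and 186 CPM in Treg. In WT its rise of 0.93 ± 0.36 was called in only 2 of the 10 fits that left out 1 library, with the highest adjusted p, 0.106, without Th0 WT 3. Its levels in Th0 KI, 187, 81.2, 149 and 78.4 CPM, spanned those of Treg KI, 85.2 to 128.9 CPM, and it was not called there.

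**Figure D3:**
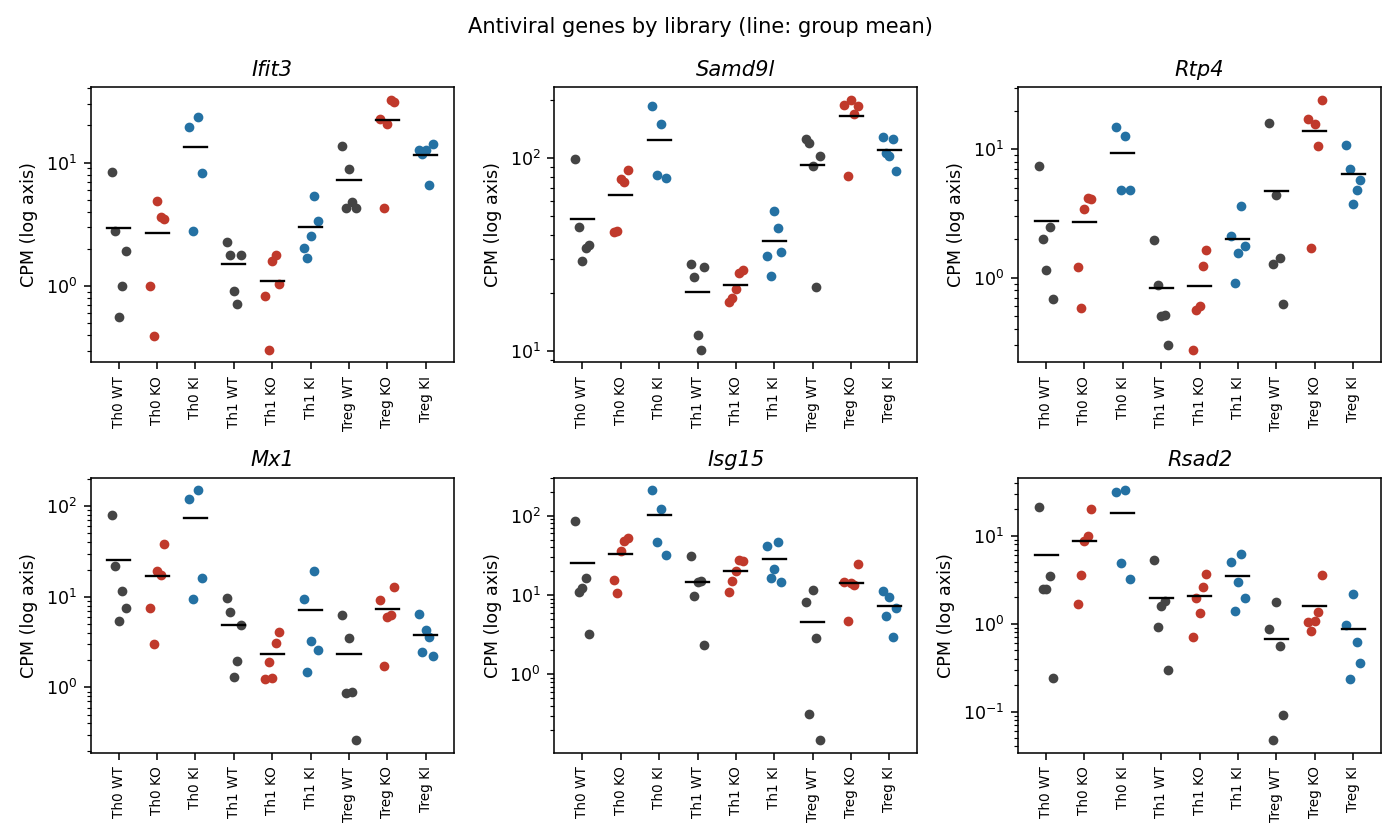
CPM on a log axis of 6 antiviral genes in every library, by group of culture and genotype; points are libraries and black lines group means. Ifit3, Samd9l and Rtp4 are higher in Treg KO than in Th0 KO, whereas Mx1, Isg15 and Rsad2 are lower in Treg KI than in Th0 KI.

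Among the sensors, Ifih1 (the MDA5 gene) fell by 2.11 ± 0.44 in WT (adjusted p = 2.83e-04) and 2.09 ± 0.45 in KI, and both calls held when any 1 library was left out. It was at 144.2, 117.01, 47.9, 34.9 and 147 CPM in Th0 WT and at 36.5, 23.2, 27.8, 10.3 and 15.8 CPM in Treg WT. Zbp1, a sensor of Z-form nucleic acid, rose in KO by 1.19 ± 0.32. Ddx58 (the RIG-I gene) and its relative Dhx58 were called in none of the 18 comparisons of cultures or genotypes, nor were Ly6e, Helz2 and Ifi35.

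Of the 20 regulators, modifiers and other induced genes, 0 rose and 4 fell in WT, 7 rose and 1 fell in KO, and 0 rose and 9 fell in KI. Isg15, a ubiquitin-like protein, was at 209, 46.04, 122.01 and 31.7 CPM in Th0 KI and 11.2, 5.46, 9.44, 2.93 and 6.82 CPM in Treg KI, with no overlap, and fell by 3.83 ± 0.85 on the log2 scale. In WT it fell by 2.46 ± 0.79, a call that ended without Th0 WT 1 (log2 fold change -1.19, adjusted p = 0.221), and in KO its log2 fold change of -1.20 ± 0.76 did not pass. Dtx3l, a ubiquitin ligase that works with PARP9, rose in KO by 1.07 ± 0.17 (adjusted p = 6.33e-06). Irf9, the DNA-binding partner of STAT2, rose in KO by 0.67 ± 0.20, Rtp4 by 2.36 ± 0.73 and Ifi27l2a by 1.70 ± 0.45. Tor3a fell in all 3 genotypes, by 0.82 ± 0.19 in WT, 0.53 ± 0.19 in KO and 1.07 ± 0.20 in KI, with the KO call ending without Th0 KO 5 (adjusted p = 0.0676) among others. Of the calls in Treg against Th0, 5 of 13 in WT, 12 of 19 in KO and 18 of 25 in KI held in every fit that left out 1 library.

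Myeloid and dendritic markers moved in the same comparison. Their summed level was 2.64 to 17.5 CPM in the Th0 libraries and 8.38 to 58.9 CPM in the Treg libraries, with 4 of 9 markers higher in each genotype. Only 1 of the 9 had no count in Th0 KO (S100a8) and only 1 in Th0 KI (S100a9), and all 9 were counted in Th0 WT. With no count in Th0 only a higher call was possible. The direction is thus no result for S100a8 in KO or S100a9 in KI. Of 5 plasmacytoid dendritic markers 3 were tested, and Ccr9, which T cells also express, was called higher in each genotype. Their sum was 5.15 to 30.9 CPM in Th0 and 7.49 to 38.5 CPM in Treg, with Siglech at 0 in all Th0 groups. Of the 8 CD8 T and NK markers, 1 was higher and 1 lower in WT, 1 lower in KO and 3 lower in KI, with Eomes lower in each. Of the 5 CD4 T cell markers, Cd3e, Cd3g and Trac were higher in each genotype. B cell markers summed to 163 to 1853 CPM in Th0 and 242 to 1169 CPM in Treg, with 1 of 7 lower in WT, 1 lower in KO and 0 called in KI. Between 15.7% and 17.4% of all genes were called in each direction per genotype, so single calls in these small lists lie near that share. The part of any of these cell types in the antiviral levels was not tested. In such bulk cultures fewer expressing cells and less RNA per cell cannot be told apart.

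Treg cultures were next set against Th1 cultures, a comparison that shares its Treg libraries with the one above. In WT 10 members rose and 3 fell (15.6% and 15.2% of all genes), in KO 21 rose and 0 fell (15% and 15%), and in KI 6 rose and 7 fell (17% and 15.8%, together 32.8%). The members' median log2 fold change was 0.16, 0.79 and 0.01. With paired libraries 13 rose and 10 fell in WT (18.4% and 18.9% of all genes) and 29 rose and 3 fell in KO (18.2% and 18.5%).

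The same 6 genes rose in all 3 genotypes: Ifit2, Ifit3, Ifit3b, Ifit1bl1, Oas1c and Samd9l. The KI call of Ifit3b held in 3 of 10 fits that left out 1 library (highest adjusted p 0.0901, without Th1 KI 2). The WT call of Ifit1bl1 and the KI call of Oas1c held in 9 of 10, and the others in 10 of 10. Ifit3 was at 0.835, 0.304, 1.59, 1.78 and 1.04 CPM in Th1 KO, below every Treg KO library, and rose by 4.32 ± 0.69 (SE). Samd9l rose by 2.18 ± 0.37 in WT, 2.91 ± 0.38 in KO (adjusted p = 3.11e-07) and 1.57 ± 0.36 in KI, and all 3 calls held when any 1 library was left out. Rtp4 rose in WT by 2.51 ± 0.74, a call that ended without Treg WT 1 (adjusted p = 0.187), and in KO by 4.0 ± 0.78. Usp18, the enzyme that removes ISG15 and damps the type I receptor, fell in WT by 1.99 ± 0.66 and in KI by 2.20 ± 0.66. It was at 184, 57.7, 155, 230 and 23.5 CPM in Th1 WT and 25.4, 4.33, 69.96, 60.8 and 2.68 CPM in Treg WT. Oasl1 fell in WT by 2.53 ± 0.86 and in KI by 2.61 ± 0.86. The WT calls of Usp18 and Oasl1 each held in 7 of 10 fits that left out 1 library, and both KI calls held in 10 of 10.

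Th1 against Th0 cultures gave few calls, all of them lower. In WT 0 members rose and 2 fell (2.22% and 0.818% of all genes), in KO 0 and 7 (5.33% and 4.18%, together 9.51%), and in KI 0 and 9 (2.98% and 2.94%, together 5.92%). With paired libraries 9 fell in WT, 16 in KO and 28 in KI, where 2.87%, 8.74% and 5.51% of all genes fell. The median log2 fold change of the members was -0.60, -0.55 and -1.04, while the mean level of Ifng in WT was 478 CPM in Th0 and 1787 CPM in Th1.

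Tor3a fell in every genotype, by 0.98 ± 0.19 in WT, 0.98 ± 0.19 in KO and 1.13 ± 0.20 in KI, and Samd9l by 1.25 ± 0.36, 1.56 ± 0.36 and 1.75 ± 0.38. In WT Samd9l was at 98.5, 43.998, 29.4, 34.1 and 35.2 CPM in Th0 and at 28.03, 24.3, 12.01, 10.1 and 27.1 CPM in Th1, with no overlap. That WT call was kept in 4 of the 10 fits that left out 1 library, with the highest adjusted p, 0.241, without Th0 WT 1. Mx1 fell in KO by 2.87 ± 0.85 and in KI by 3.34 ± 0.89, calls that held in 4 of 10 and 4 of 9 such fits. Isg15 did not pass in WT at -0.81 ± 0.75, and without Th0 WT 1 its value turned to 0.47 (adjusted p = 0.817). The KO count of 7 was 2 without Th0 KO 5, 4 without Th0 KO 4 and 3 without Th0 KO 3 or any 1 of Th1 KO 1 to 4, and the KI count of 9 was 3 without Th0 KI 1, 4 without Th0 KI 4 or Th1 KI 2, 5 without Th1 KI 5 and 14 without Th0 KI 3. The WT count of 2 was 1 without Th0 WT 1, Th0 WT 2, Th1 WT 1, Th1 WT 3 or Th1 WT 4. How the share of all genes moved in these fits is not given, so the moves are a description only.

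Genes of the interferon-gamma response that are not members served as a neighbouring list of 23. In Treg against Th0 cultures 0 rose and 10 fell in WT, where 17.4% of all genes rose and 15.7% fell. In KO 10 rose and 1 fell (17.1% and 15.9% of all genes), and in KI 0 rose and 5 fell (16.7% and 16.9%). The share that fell in KI thus lay near that of all genes. The chemokine gene Cxcl10 fell in each, by 4.41 ± 0.72 in WT, 2.79 ± 0.67 in KO and 4.08 ± 0.72 in KI on the log2 scale. In KO the riser with the largest change was Iigp1, an immunity-related GTPase, at 1.51 ± 0.52, which ended without Th0 KO 2 (adjusted p = 0.0670), and the transcription factor gene Irf1 rose by 0.97 ± 0.26. Ifng was at 0.886, 0.782, 78.7, 846 and 0.622 CPM in Treg WT and 5.25, 157, 1.74, 8.88 and 4.52 CPM in Treg KO.

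The effect of miR-150 genotype was tested within each culture. The antiviral genes stood higher in KI than in WT Th0 cultures for all 48 members, with a median log2 fold change of 1.29, but 2 passed the test (0.471% of all genes rose and 0.0411% fell, together 0.512%). Oas1c was at 10.6, 5.41, 4.60, 4.93 and 5.80 CPM in Th0 WT and 19.1, 19.8, 11.1 and 11.6 CPM in Th0 KI, with no overlap, and rose by 1.30 ± 0.28 (SE, adjusted p = 0.0427). Phf11d was at 2.18, 0.840, 0.409, 1.48 and 0.770 CPM in Th0 WT and 6.66, 4.45, 3.997 and 1.25 CPM in Th0 KI, with overlap, and rose by 1.85 ± 0.43 (adjusted p = 0.0457). Isg15 at 2.00 ± 0.80 and Mx1 at 1.54 ± 0.84 did not pass. At an unadjusted p under 0.05, 35 members were higher in KI, against 9.67% of all genes.

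This count turned on single libraries. Without Th0 WT 1 it was 28 (2.36% of all genes were then called in either direction), without Th0 KI 4 or Th0 KI 5 it was 7, and without Th0 KI 1, Th0 KI 3 or any of Th0 WT 2 to 5 it was 0. Th0 WT 1, Th0 KI 1 and Th0 KI 4, the highest of their groups in mean level, are also those with the most interferon-alpha and Ifnb1 counts. The part of that difference in the comparison was not tested. Without the libraries of the highest Cd8a it was 0. DESeq2 called 14 members (2.19% of all genes rose and 0.828% fell). Against KO, the Th0 KI libraries gave 0 calls (0% of all genes), a median of 1.0 and 30 members higher at an unadjusted p under 0.05 (7.58% of all genes). DESeq2 called 6 here, and edgeR 3 without Th0 KI 4 and 1 without Th0 KI 5. These counts are given without the share of all genes in the same fit, as a description only.

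**Figure D4:**
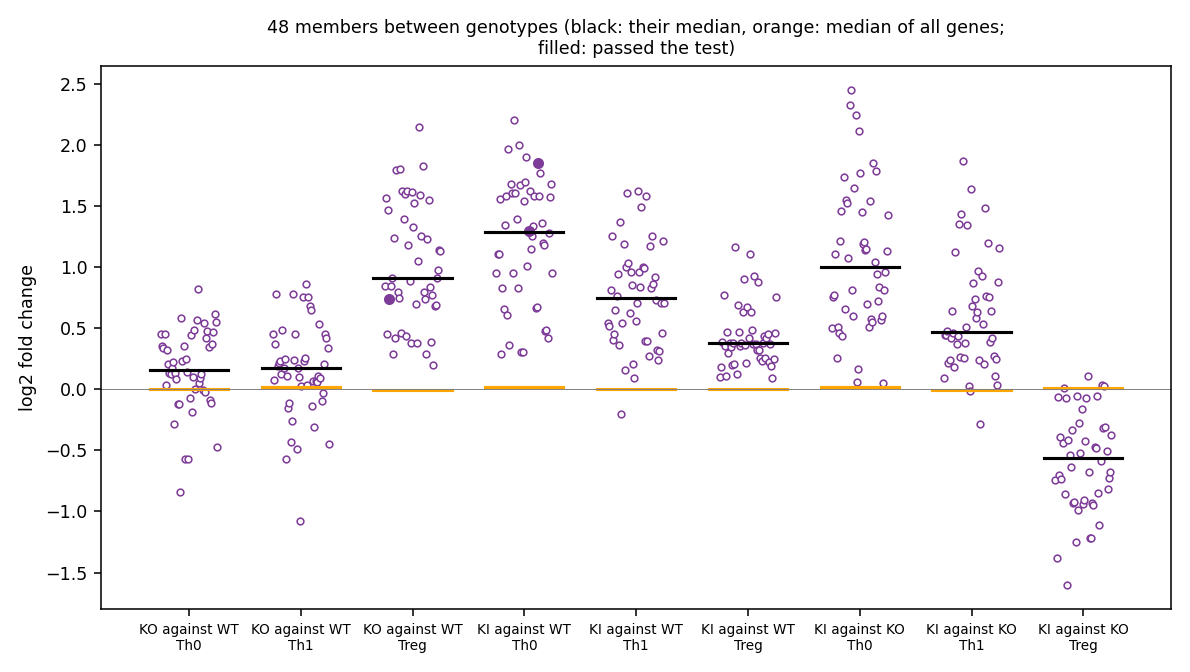
Log2 fold change between genotypes of each of the 48 members in 9 comparisons; filled points passed the test, black lines are the members' medians and orange lines the medians of all genes. The members' medians are 1.29 for KI against WT in Th0 and 0.91 for KO against WT in Treg, and 3 points are filled.

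In Treg cultures the KO libraries stood above WT. All 48 members had a positive log2 fold change, with a median of 0.91, and 1 passed (0.105% of all genes rose and 0.0640% fell). That member was Dtx3l (chromosome 16, 35926511 to 35939151, minus strand), at 288, 207, 261, 148 and 223 CPM in Treg WT and 427, 228, 353, 465 and 410 CPM in Treg KO, where Treg KO 2 was the only KO library within the WT range. Dtx3l rose by 0.74 ± 0.17 (SE, adjusted p = 0.0466). At an unadjusted p under 0.05, 31 members were higher, against 4.89% of all genes. DESeq2 called 4 members (0.302% of all genes rose and 0.448% fell).

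The count of 1 was 5 without Treg WT 3 (0.893% of all genes called in either direction), 3 without Treg KO 2 (0.641%), and 0 without Treg WT 2, 4 or 5 or Treg KO 1, 3, 4 or 5. Without the libraries of the highest Cd8a it was 2 (1.03%). Zbp1 was at 87.5, 42.5, 63.97, 42.1 and 31.4 CPM in Treg WT and 145.1, 52.1, 127.01, 103.3 and 158 CPM in Treg KO, with overlap. In the interferon-gamma response list 4 of 23 rose in Treg KO against WT and 0 fell, with a median of 0.83.

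The remaining genotype comparisons gave 0 member calls by edgeR, and their members lay closer to 0. Over all genes, 0.00914% rose and 0.0183% fell (together 0.0274%) for KI against WT in Th1, 0.0229% were called for KI against KO in Treg and 0% in the others. KI against WT had a median log2 fold change of 0.75 in Th1, with 18 members higher at an unadjusted p under 0.05 (7.08% of all genes) and 1 called by DESeq2 (2.09% of all genes in either direction), and 0.37 in Treg, with 4 higher (3.96%) and 0 called by DESeq2. KI against KO in Treg had a median of -0.56, with 6 members lower (3.58%) and 0 called by DESeq2. KI against KO in Th1 had 12 higher (2.97%) and 0 called by DESeq2. KO against WT had medians of 0.16 in Th0 and 0.17 in Th1, with 0 members at an unadjusted p under 0.05 (2.26% of all genes higher in Th0 and 3.90% in Th1) and 0 called by DESeq2.

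Whether the Treg effect itself differed between genotypes was tested as a difference of effects, and 0 members passed in any of the 7 such comparisons by edgeR or by DESeq2, where edgeR called 0% of all genes. The difference between KI and KO in the Treg against Th0 effect, added after the values were seen, had the most members at a low unadjusted p. All 48 were negative, with a median of -1.66, and 34 were lower at an unadjusted p under 0.05 (3.97% of all genes), the lowest adjusted p being 0.475 for Isg20. Between KO and WT 9 members were higher at an unadjusted p under 0.05 (2.48% of all genes), the lowest adjusted p being 0.466 for Zbp1, whose difference was 1.6 ± 0.44 (SE). Between KI and WT 5 were lower in the Treg against Th0 effect. In the Treg against Th1 effect 11 were higher between KO and WT and 0 differed between KI and WT. These counts are not set beside a share of all genes, so nothing is read from them. The Th1 against Th0 effect gave 0 for either genotype. The opposite calls in KO and KI for Treg against Th0 are thus not shown to differ by a test that passed.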

How the data were processed

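Poly(A) RNA of the 44 cultures was sequenced in paired reads of 150 bases from stranded libraries, per the labels' protocols. The deposited values are whole-number counts per gene, as deposited by the authors, with 2 lane columns per library that were summed here. Column headers carry the name of the aligner STAR, per the file headers, with no version. GRCh38 is the only build listed in the submitters' processing notes, whereas the gene identifiers are of the mouse. Of the 55416 genes, 1492 had an identifier with no symbol matched to it. Gene positions and promoters come from GRCm38 annotation.

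edgeR 4.0.16 (R 4.3.3) fitted 9 group means to all 44 libraries, with TMM factors, and tested the 21873 genes that passed filterByExpr by quasi-likelihood, adjusted by Benjamini-Hochberg over all of them and called at 0.05. Alternatives were DESeq2 1.42.0, RLE factors, no filter, only the groups compared, a replicate block, Cd8a as a covariate and libraries left out. CPM were computed in edgeR with TMM factors, and mean levels used a pseudocount of 0.5. All 86 pairs of libraries within a group differed beyond counting noise. The fits were tested on simulated data.

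Same-numbered cultures of a genotype deviated together (every correlation above 0.1) except Th0 and Treg of KO (lowest 0.0845). The main fit nonetheless treated no libraries as paired, so its p-values leave this pairing out. The replicate block was an alternative that paired same-numbered cultures of a genotype, those of KO included. For genotype comparisons it paired same-numbered libraries of a culture. Such libraries were not shown to be matched. Their mean correlation ran from -0.230 (Th0 of KO and KI) to 0.134 (Treg of WT and KI), so nothing is read from the block there. Members and lists were chosen with earlier results of these data known. Named were 15 members and 10 pathway genes always, up to 10 each way per comparison, 5 per difference and 3 per list; other members were chosen after their values were seen.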

Additional observations from a re-analysis of the deposited data

Results flagged for a closer look

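The mean level and 15 members, 16 measures in all, were each checked in 9 groups. In 17 of these checks, 1 library lay far from the others of its group. Its gap to its nearest neighbour was a large share of the group's range (above 0.710 for 5 libraries). Chance gives about 5% of checks only where values are normally distributed and checks independent. The members were checked as CPM without logs, which are skewed to high values, and they move together. The 17 can thus not be read against that 5%. Th0 WT 1 was the high library in 11 of them, which are measures of the same library and not separate events. Its gap was 0.711 of the range for the mean level of the members, 0.730 for Ifit1, 0.717 for Ifit3, 0.841 for Isg15, 0.779 for Mx1, 0.820 for Oasl2, 0.846 for Rsad2, 0.733 for Usp18, 0.877 for Irf7, 0.735 for Irf9 and 0.881 for Ddx58. Th1 WT 1 was high for Oasl2 (0.810). Th1 KI 3 and Treg KI 3 were high for Oas1a (0.839 and 0.776), and Treg KI 3 also for Usp18 (0.785). Treg KO 5 was high for Rsad2 (0.817), and Treg KO 2 was low for Trim21 (0.753).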

How the results depend on the processing

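Counts of called members moved with the fit, as did the share of all genes called. With the block in Treg against Th0 of WT, 20.1% of all genes rose and 20.3% fell, against 17.4% and 15.7% in the main fit. A change in count below is thus not shown to be particular to the members. For Th1 against Th0 in WT the count of 2 became 4 with DESeq2, 1 without the low-count filter, 0 with only the groups compared, 9 with the replicate block and 1 to 3 with 1 library left out. In KO the 7 became 4 without the filter, 15 with only the groups compared, 16 with the block and 2 to 10 with 1 library left out. In KI the 9 became 17 with the Cd8a covariate, 18 with DESeq2, 28 with the block, 14 without the highest-Cd8a libraries and 3 to 14 with 1 library left out. For Treg against Th0 in WT the 13 became 4 with only the groups compared, 23 with the block and 8 to 15 with 1 library left out. For Treg against Th1, only the groups compared gave 7 in WT, 33 in KO and 21 in KI. The block gave 23 in WT (18.4% of all genes rose and 18.9% fell) and 32 in KO (18.2% and 18.5%). For KI against WT in Th0 the 2 became 14 with DESeq2, 1 with RLE factors, 0 without the filter, 0 with only the groups compared, 0 with the block, 0 without the highest-Cd8a libraries and 0 to 28 with 1 library left out. For KO against WT in Treg the 1 became 4 with DESeq2, 2 without the highest-Cd8a libraries, 0 without the filter, with only the groups compared, with the block and with RLE factors, and 0 to 5 with 1 library left out. In genotype comparisons the block paired libraries that were not shown to be matched, so its counts there are no check. KI against KO in Th0 went from 0 to 6 with DESeq2 and 0 to 3 with 1 library left out, and KI against WT in Th1 to 1 with DESeq2. The mean level of Th1 KO was 4.39 with a pseudocount of 2. Isg15 in Th1 against Th0 of WT ran from -1.29 to 0.47 with 1 library left out and turned sign without Th0 WT 1. The cause of these moves was not tested. Of 168 named values, 166 kept their side of the threshold with the Cd8a covariate, 161 with DESeq2, 163 with RLE factors, 148 without the filter, 164 with the block and 160 without the highest-Cd8a libraries, while 29 lost it with only the groups compared.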
